A study of Mus musculus with 40 samples.

Results

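The mature 14dpr callus, taken 14 days post-resection (dpr) from the site of a large-scale rib defect in mature mice, was compared with mature baseline rib over all genes, to measure how far the tissue had returned to its state before resection. The comparison used 4 mature 14dpr and 4 mature baseline libraries, 8 of the 39 bulk RNA-seq libraries of the series, and the 21204 genes that the authors kept after filtering, out of 48733 in the full count table. All mice were female wild-type C57BL/6 animals. Mature mice were labelled as older than 10 months, and immature mice, whose baseline and 14dpr libraries (n = 4 each) are set beside the mature ones, as 7 weeks old. Mature libraries of 0, 2 and 5dpr (n = 4, 4 and 3) give the stages in between. The baseline material was labelled as bone, bone marrow and intercostal muscle together, whereas the 14dpr material was labelled as bone callus. What was dissected and what had changed in the tissue therefore cannot be told apart. The labels place baseline collection after resection and the methods place it before. Nothing in the labels says whether libraries of a group came from separate litters or days, and p-values measure only the spread between these samples.

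A resected rib heals through a callus that periosteal progenitors build. Cells of the callus first lay down a collagen-rich fibrous matrix, some become chondrocytes that make a cartilage template, osteoblasts then deposit bone, osteocytes become embedded in it, and osteoclasts remodel it. The marrow inside a mature rib makes red cells, granulocytes and B cells, and intercostal muscle lies against the bone. A callus that had returned to baseline would hold bone, marrow and muscle transcripts at their former levels and little cartilage or repair matrix.

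Total counts were 8284742 to 10385894 in mature baseline and 8430285 to 9087417 in mature 14dpr libraries, a difference within the spread (exact two-sided permutation test, p = 0.343, the smallest possible being 0.0286). The markers of the labelled material were present: bone (Bglap, 318 ± 79.3 CPM, the normalised read count scaled to library size, at baseline), marrow (Hbb-bs, 10630.4 ± 2172 CPM) and muscle (Acta1, 7934 ± 3189.8 CPM), as mean ± SD. Markers of other tissues around a rib took little of either group. Mesothelial genes took at most 0.0182% of the counts of a baseline library and 0.00344% of a 14dpr library. Of the 16 genes of these lists and a mammary list 2 were called, Lrrn4 and Epcam, both lower at 14dpr. Lrrn4 stood at 28.8 CPM in baseline replicate 4 and at most 2.68 CPM in the others, and it was not called without that library (log2 fold change −0.63, adjusted p = 0.729 in edgeR's test) or without 14dpr replicate 1, 2 or 4 (−2.54 to −2.80, adjusted p = 0.0834 to 0.106). Of these lists, the defining genes Csn2 (mammary), Krt5 (skin) and Sftpc (lung) were not among the genes kept by the filter. 1 library of another stage, replicate 3 of mature 2dpr, stood apart from its group. It had counts for 14214 genes, against 20220 to 20823 in the other 3, and differed from them by a median root mean square of 1.82 in log2 CPM, against 0.675 to 0.703 for each of the others. It was kept in the model, whose estimate of the spread is shared by all libraries. Without it 8177 genes were called in the comparison described here, among them each of the 7113 called with it.

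At 14dpr the mature tissue was still far from baseline. Of the 21204 genes, 7113 (33.5%) differed by edgeR's quasi-likelihood test at an adjusted p below 0.05 (Benjamini-Hochberg over all genes, as throughout), 3629 higher (17.1%) and 3484 lower (16.4%). Of all genes, 1874 (8.84%) were called and at least 2-fold higher, and 2121 (10%) were called and at least 2-fold lower. Whether called or not, 6226 genes (29.4%) changed at least 2-fold. The 4 values of a group did not overlap those of the other for 7965 genes (37.6%). Without adjustment 8770 genes (41.4%) had p below 0.05. The root mean square difference of log2 CPM between a 14dpr and a baseline library was 1.122 (median of 16 pairs), against 0.674 between baseline libraries and 0.667 between 14dpr libraries. The median gene was not shifted (log2 fold change −0.03).

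The earlier stages also lay apart from baseline. Baseline and 0dpr libraries lay 0.949 apart, baseline and 2dpr libraries 1.276 (1.23 without 2dpr replicate 3), and baseline and 5dpr libraries 1.171. The number of genes called against the same 4 baseline libraries was 4775 (22.5%) at 0dpr, 8488 (40%) at 2dpr and 6954 (32.8%) at 5dpr. The order of these numbers was not stable. They were 4543, 4981 and 8424 (8328 at 14dpr) when only the 2 groups compared were fitted, 49, 4501 and 6571 (4931 at 14dpr) with a score of muscle gene expression (the mean log2 CPM of 33 contractile genes) as a covariate, and 6077, 8981 and 8342 (8177 at 14dpr) without 2dpr replicate 3. From 5dpr to 14dpr 886 genes (4.18%) were called (1564, all 886 among them, without 2dpr replicate 3), 414 higher and 472 lower, and the median absolute log2 fold change was 0.34, against 0.549 between baseline and 14dpr. Libraries of 5dpr and 14dpr lay 0.811 apart. The callus at 14dpr was thus closer to the callus at 5dpr than to baseline rib by this measure, which carries no test.

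**Figure D1:**
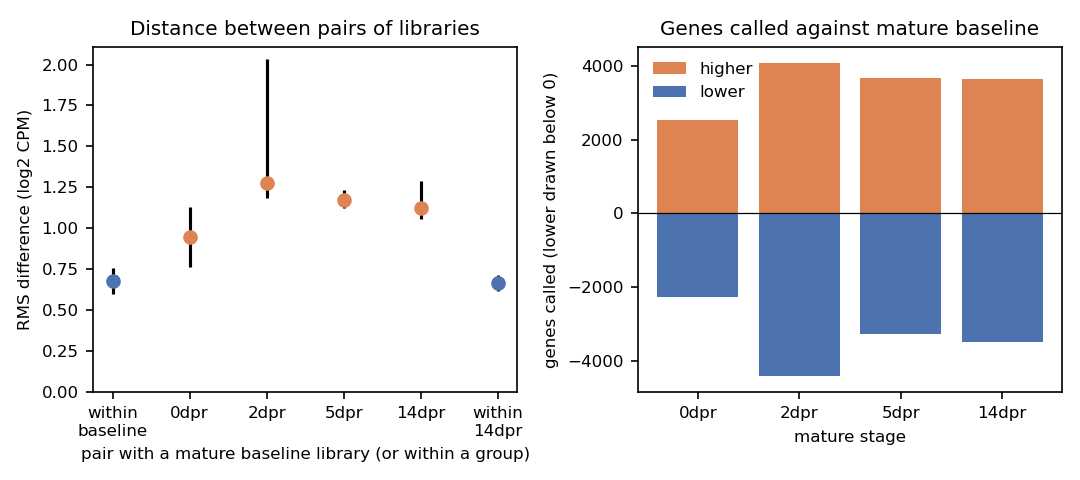
Distance of mature libraries from mature baseline (left; points are the median and lines the range over pairs of libraries of the root mean square difference in log2 CPM) and the number of genes called against baseline at each stage (right; orange bars higher, blue bars lower, drawn below 0). Pairs of 14dpr and baseline libraries had a median of 1.122, above the 0.674 between baseline libraries.

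The largest increases were in genes that were silent or nearly silent at baseline. Prl2c2, a proliferin gene of the prolactin family, had no count in the baseline libraries and 30.7, 15.4, 22.3 and 28.4 CPM in the 14dpr libraries. Against a floor of 3 counts per library (0.300 CPM) this was at least 80.8-fold higher, although its near-identical copy Prl2c3, at least 6.87-fold higher, can share its reads. By the same floor the urate oxidase gene Uox was at least 29.1-fold higher, Tcfl5, a basic helix-loop-helix factor, at least 11.3-fold, the olfactory receptor gene Olfr810 at least 9.35-fold, Glycam1, an endothelial mucin, at least 8.16-fold and the growth factor gene Ereg at least 7.48-fold. Brinp3 had 8 counts in all baseline libraries and a ratio of 243 (95% interval 123 to 563), where the interval covers counting error only. All these genes were called. They were chosen among genes whose groups did not overlap. The call for Uox was lost with the muscle covariate, and that for Prl2c3 with DESeq2.

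The genes with the smallest p-values were not these but abundant matrix and immune genes. C3ar1, the receptor for a complement fragment, had the smallest p among genes that rose (log2 fold change 4.26 ± 0.21, adjusted p = 3.05e-16, where ± is the standard error of the fit and n = 4 and 4 libraries). It was followed by Fstl1, a secreted follistatin-like protein (log2 fold change 3.54 ± 0.19, adjusted p = 5.72e-16), Col3a1, and C1qtnf3, which encodes the secreted cartducin. C1qtnf3 stood at 13.5, 5.62, 3.84 and 8.98 CPM in the baseline libraries and at 1204, 869, 1108 and 706 CPM in the 14dpr libraries, and the fitted change was 122-fold (log2 fold change 6.93 ± 0.38, adjusted p = 7.68e-16). Among genes that fell, the smallest p-values belonged to Epb41 (log2 fold change −2.82 ± 0.22, adjusted p = 2.06e-12) and Sptb (log2 fold change −2.997 ± 0.25, adjusted p = 1.95e-11), which encode parts of the red cell membrane skeleton, and to Sox6 (log2 fold change −2.40 ± 0.20, adjusted p = 1.39e-11), a transcription factor used by both chondrocytes and erythroid cells. Sox6 was at 139.7, 141, 143 and 157 CPM in the baseline libraries and at 20.01, 31.3, 33.5 and 25.5 CPM in the 14dpr libraries, so that the groups were far apart while cartilage genes went the other way.

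The 12 largest decreases among genes of at least 1 CPM without overlap were in genes of different kinds. Gp1ba, a platelet adhesion receptor, was at 20.5, 25.6, 16.2 and 8.53 CPM at baseline and at 0.241, 0.670, 1.45 and 0.312 CPM at 14dpr (log2 fold change −4.70 ± 0.58, adjusted p = 6.13e-08), and the platelet inhibitory receptor gene Mpig6b changed alike (log2 fold change −4.36 ± 0.67, adjusted p = 3.35e-06). Itgad, an integrin of splenic and marrow macrophages, had a log2 fold change of −4.48, and Slc35d3, a gene of platelet granules, of −4.35. The others included the amino acid transporter gene Slc6a20a (log2 fold change −4.65 ± 0.76, adjusted p = 8.92e-06), the apolipoprotein L gene Apol11a (log2 fold change −4.63 ± 0.69, adjusted p = 1.86e-06), the potassium channel gene Kcnj5 (log2 fold change −4.53 ± 0.89, adjusted p = 1.20e-04) and Odf3l2 (−4.58). Tac2, the neurokinin B gene, had 2 counts and Efcab6 4 counts in all 14dpr libraries, and their baseline levels were 39.4 (95% interval 10.6 to 330.1) and 30.96 (95% interval 11.8 to 115) times higher. Btnl6, a butyrophilin-like gene, had 2 counts in all 14dpr libraries, and its baseline level was 99.95 (95% interval 27.4 to 830.4) times higher, where the interval covers counting error only. Mir144, the hairpin gene of an erythroid microRNA, fell by 4.29 on the log2 scale (adjusted p = 3.63e-04), with 9.22, 4.86, 8.58 and 10.7 CPM at baseline and 0, 0.447, 0.446 and 0.727 CPM at 14dpr. These counts are of reads over the hairpin gene (chr11:78073005-78073070, GRCm38, plus strand), from libraries that did not select for mature microRNAs. Its 2 mature products are shown from RefSeq (GRCm38.p6), with bases 2 to 8, the seed, in capitals, because they are what the hairpin gene encodes. Their own levels were not measured. Their seeds differ.
mmu-miR-144-5p, chr11:78073010-78073032: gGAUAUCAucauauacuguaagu
mmu-miR-144-3p, chr11:78073047-78073066: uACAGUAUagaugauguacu

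Grouped by function, the 14dpr callus was high in collagens, repair matrix, cartilage, tendon, macrophage and chemokine genes and low in erythroid, granulocyte, B cell, proliferation, fat and muscle genes, while osteoblast, osteocyte and osteoclast genes were called about as often as all genes, with medians of −0.61, −0.48 and 0.30. The lists below are described by how many members were called, which can be read against the 17.1% of all genes called higher and 16.4% called lower, and by their median log2 fold change, against −0.03 for all genes. Counts for the interval from 5dpr to 14dpr can be read against the 1.95% called higher and 2.23% called lower in it. In bulk tissue, fewer cells of a type and less RNA per cell cannot be told apart.

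**Figure D2:**
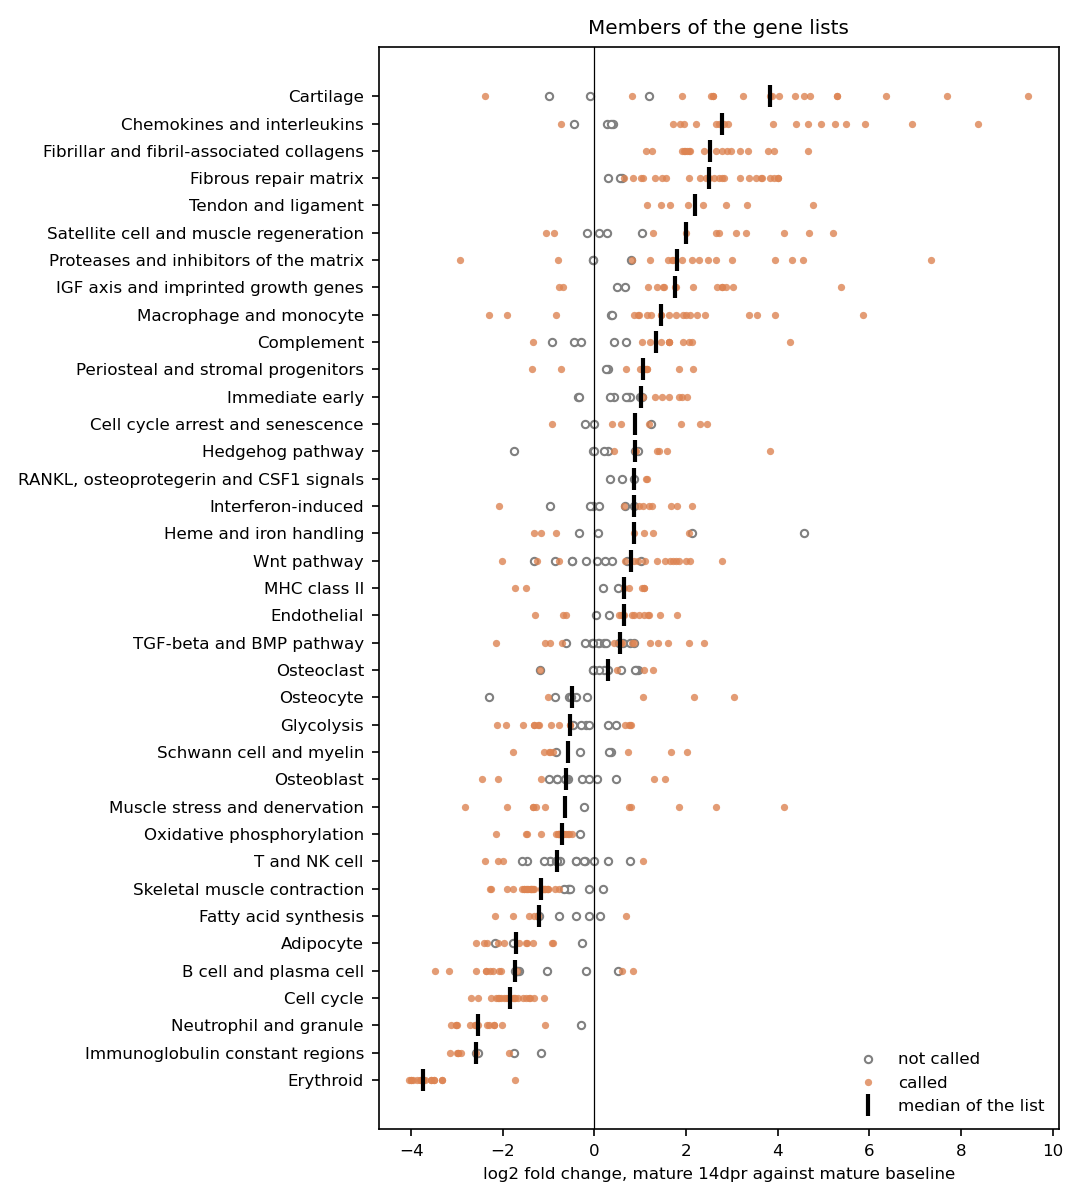
Log2 fold change between mature 14dpr and mature baseline for each tested member of the gene lists (rows). Filled points were called, open points were not, and black ticks are list medians, which ran from −3.74 for erythroid genes to 3.84 for cartilage genes.

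The fibrous matrix of repair dominated the increases. All 18 collagen genes tested rose, with a median log2 fold change of 2.52, and their share of all counts was 6.47 to 9.60% at 14dpr against 1.19 to 2.63% at baseline. Col3a1, the fibrillar collagen of early repair tissue (chr1:45311538-45349706), led them. Col3a1 was at 1088, 675, 514 and 1252 CPM in the baseline libraries and at 28166, 19481, 20342 and 21025 CPM in the 14dpr libraries, and rose 25.2-fold (log2 fold change 4.66 ± 0.25, adjusted p = 5.93e-16). The main bone collagens Col1a1 (log2 fold change 1.26 ± 0.40, adjusted p = 0.0120) and Col1a2 (log2 fold change 1.12 ± 0.30, adjusted p = 0.00364) rose least of the list. The call for Col1a1 ended without baseline replicate 3 (log2 fold change 1.06) and both calls ended with the muscle covariate (0.73 for Col1a1 and 0.71 for Col1a2). The other large changes were in Col5a3 (3.91), Col18a1 (3.78), whose product is a basement membrane collagen, and the microfibril genes Col6a3 (3.34) and Col6a1 (3.18).

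Of 27 other repair matrix genes 24 rose and 0 fell (median 2.497). Fn1 was at 622, 774, 371 and 495 CPM in the baseline libraries and at 8918, 4387, 6993 and 5850.0 CPM in the 14dpr libraries, with no overlap (log2 fold change 3.53 ± 0.36, adjusted p = 1.28e-09). It encodes fibronectin, the adhesive matrix of wounds. Postn, periostin of the periosteum, rose 15.99-fold (log2 fold change 3.999 ± 0.39, adjusted p = 5.32e-10) and the microfibril gene Mfap4 16.1-fold (log2 fold change 4.01 ± 0.26, adjusted p = 1.01e-13). Elastin (Eln, 3.66), fibrillin 2 (Fbn2, 3.91) and Cthrc1 (3.84), a secreted protein of injured tissue, rose to a like degree. The stress-response matricellular genes Ccn1 (log2 fold change 0.30, adjusted p = 0.495) and Ccn2 (0.61, adjusted p = 0.145) and the crosslinking enzyme gene Loxl4 (0.56, adjusted p = 0.0887) were not called, although Loxl4 was without 2dpr replicate 3 (0.56, adjusted p = 0.0458 in edgeR's test).

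Matrix-degrading enzymes rose with the matrix. Of 20 proteases and inhibitors 15 rose and 2 fell (median 1.81). Mmp12, the macrophage elastase (chr9:7344381-7369499), changed most. Mmp12 was at 3.46, 0.754, 0.887 and 1.91 CPM in the baseline libraries and at 183, 220.1, 279.6 and 428 CPM in the 14dpr libraries (log2 fold change 7.34 ± 0.51, adjusted p = 2.58e-13). Mmp3 (stromelysin, 4.54), Mmp19 (4.31) and the aggrecanase Adamts4 (3.94) followed, as did the inhibitor Timp1 (2.997). The inhibitors Timp3 (log2 fold change −0.79 ± 0.22, adjusted p = 0.00536) and Timp4 (log2 fold change −2.94 ± 0.43, adjusted p = 1.39e-06) fell. Mmp9, made by osteoclasts and neutrophils, was at 461 ± 94.2 CPM at baseline and 452 ± 58.4 CPM at 14dpr and was not called (adjusted p = 0.960), and neither was the collagenase Mmp13 (0.80, adjusted p = 0.0793). Mmp13 was called when the 8 libraries compared were fitted alone (0.81, adjusted p = 0.00749 in edgeR's test).

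All 8 tendon and ligament genes rose, with a median of 2.20, although leaving out single libraries left 6 to 8 of them called. Tnmd, tenomodulin, a membrane protein of tenocytes, changed most. Tnmd was at 10.2, 8.13, 4.53 and 8.64 CPM in the baseline libraries and at 248, 222, 248 and 140.1 CPM in the 14dpr libraries, so that the lowest 14dpr library was far above the highest baseline library (log2 fold change 4.77 ± 0.38, adjusted p = 5.87e-12). Kera, the keratan sulfate proteoglycan keratocan (log2 fold change 3.33 ± 0.42, adjusted p = 8.63e-08), Cilp2 (2.87) and Fmod, fibromodulin (2.04), rose as well. The tendon transcription factors Scx (log2 fold change 1.65 ± 0.52, adjusted p = 0.0130) and Mkx (log2 fold change 1.15 ± 0.42, adjusted p = 0.0316) rose less. Both calls were lost on leaving out 1 library, that of Scx without 14dpr replicate 1 (1.40) and that of Mkx without baseline replicate 1 (1.16) or 3 (1.008) or 14dpr replicate 2 (1.14) or 3 (0.97). Between 5dpr and 14dpr 4 of the 8 rose, Tnmd, Kera, Cilp2 and Fmod, while 1.95% of all genes rose and 2.23% fell over that interval.

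**Figure D3:**
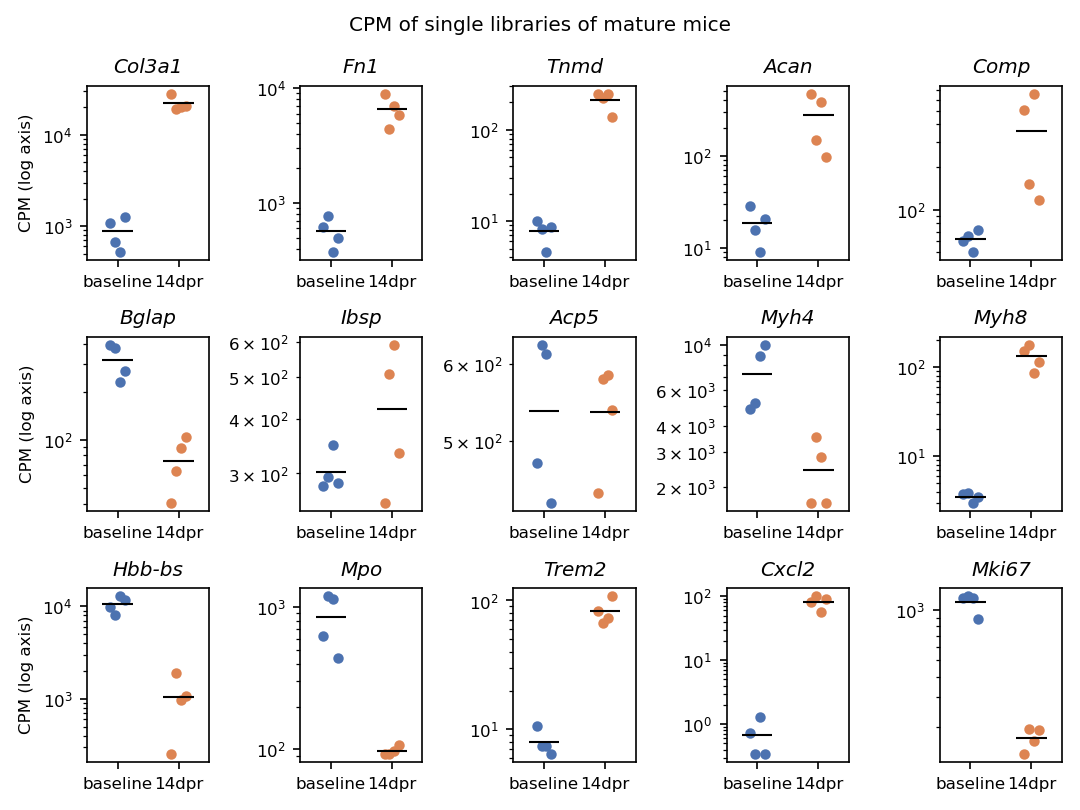
CPM of each of the 4 mature baseline (blue) and 4 mature 14dpr (orange) libraries for 15 genes, on log axes that differ between panels; black lines are group means. Col3a1, Fn1, Tnmd, Acan, Comp, Myh8, Trem2 and Cxcl2 lay higher at 14dpr without overlap, Bglap, Myh4, Hbb-bs, Mpo and Mki67 lower, and Ibsp and Acp5 overlapped.

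Cartilage genes were high at 14dpr but unevenly so. Of 21 tested 17 rose and 1 fell, Sox6, and the median was 3.84, or 2.59 when the 5 genes with at most 3 counts in every baseline library were set to the fold that a floor of 3 counts allows. The groups did not overlap for 10 of the 21, against 37.6% of all genes. Sox9, the chondrocyte master regulator, rose 6.000-fold (log2 fold change 2.58 ± 0.50, adjusted p = 8.85e-05). Acan was at 28.7, 15.7, 8.97 and 20.6 CPM in the baseline libraries and at 466, 147, 380.0 and 97.8 CPM in the 14dpr libraries, without overlap (log2 fold change 3.88 ± 0.69, adjusted p = 3.01e-05). It encodes aggrecan, the main proteoglycan of cartilage. Col2a1 was at 25.6, 54.1, 31.4 and 20.1 CPM in the baseline libraries and at 622, 302, 2183 and 9.87 CPM in the 14dpr libraries (log2 fold change 4.57 ± 1.22, adjusted p = 0.00322), so that replicate 4 of 14dpr was below each baseline library and replicate 3 was the highest. Col2a1 encodes the main cartilage collagen.

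The same spread was seen in markers of maturing chondrocytes. Col10a1, the collagen of hypertrophic chondrocytes (chr10:34389981-34397085), was at 13.02, 97.2, 58.1 and 5.82 CPM at 14dpr and had 2 counts in all baseline libraries, a ratio of 879 (95% interval 243 to 7265). Col9a1, a fibril-associated collagen, had 10 baseline counts and a ratio of 215 (95% interval 116 to 448), with 62.9, 19.9, 132 and 1.77 CPM at 14dpr. Ihh, the hedgehog ligand of prehypertrophic chondrocytes, had 3 baseline counts and 43 at 14dpr, a ratio of 16.2 (95% interval 5.19 to 81.7). Its 14dpr libraries were at 0.482, 2.35, 2.01 and 0 CPM, and the library without a count was again replicate 4. Comp (log2 fold change 2.54 ± 0.51, adjusted p = 1.46e-04), shared by cartilage and tendon, and Matn3 (log2 fold change 5.30 ± 1.10, adjusted p = 2.31e-04) did not overlap. Col11a2, Chad and Cytl1 were not called, at log2 fold changes of −0.10, 1.19 and −0.99, although Cytl1 was when the 8 libraries were fitted alone. The list took 0.0762 to 0.528% of the counts of a 14dpr library and 0.0545 to 0.1001% of a baseline library. Of the list 9 members rose between 5dpr and 14dpr and 0 fell.

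Genes of bone-forming cells were called about as often as all genes (33.5%). Of 15 osteoblast genes 2 rose, 3 fell and 10 were not called, with a median of −0.61. With the muscle covariate 1 rose and 4 fell and the median was −1.03, and 6 fell when the 8 libraries were fitted alone. The matrix genes Sparc (osteonectin, log2 fold change 1.53 ± 0.20, adjusted p = 2.66e-07) and Spp1 (osteopontin, log2 fold change 1.30 ± 0.41, adjusted p = 0.0131) rose, and both are also made by fibroblasts or macrophages. The call for Spp1 was lost with the muscle covariate (0.44, adjusted p = 0.594 in edgeR's test). Bglap was at 394, 376, 231 and 271 CPM in the baseline libraries and at 40.01, 63.7, 89.1 and 104 CPM in the 14dpr libraries, without overlap (log2 fold change −2.10 ± 0.66, adjusted p = 0.0127). It encodes osteocalcin, the late osteoblast product (chr3:88383501-88384464), and its near-identical neighbour Bglap2 fell alike (log2 fold change −2.44 ± 0.65, adjusted p = 0.00296), although reads may be shared between them. Runx2, the regulator that commits cells to bone, was at 72.6, 73.5, 40.4 and 44.2 CPM and 21.7, 32.4, 37.9 and 39.7 CPM and missed the threshold (log2 fold change −0.81 ± 0.36, adjusted p = 0.0846), and so did Sp7 (log2 fold change −0.64 ± 0.47, adjusted p = 0.333), although both were called when the 8 libraries were fitted alone and Runx2 also with the muscle covariate (−1.46, adjusted p = 0.00845 in edgeR's test). The mineralisation genes Alpl (−0.27), Ibsp (0.48) and Smpd3 (−0.13) overlapped between the groups and were not called.

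Osteocyte genes were likewise mixed. Of 11 tested 3 rose, 1 fell and 7 were not called (median −0.48, and −0.87 with the muscle covariate). Dmp1 was at 38.8, 81.2, 72.5 and 43.6 CPM in the baseline libraries and at 27.8, 44.1, 50.6 and 38.8 CPM in the 14dpr libraries (log2 fold change −0.55 ± 0.47, adjusted p = 0.414), which overlapped. Dmp1, Mepe (−0.40, adjusted p = 0.702) and Phex (−0.51, adjusted p = 0.441) serve mineral and phosphate control, and Sost (−0.86, adjusted p = 0.363) encodes sclerostin, which restrains bone formation. Pdpn, podoplanin of the young osteocyte and of lymphatic and stromal cells, rose 8.27-fold (log2 fold change 3.05 ± 0.22, adjusted p = 4.85e-13), and Fbln7 4.50-fold (log2 fold change 2.17 ± 0.32, adjusted p = 1.64e-06). Kcnk2 was the member that fell (log2 fold change −1.003 ± 0.38, adjusted p = 0.0372), a call lost on leaving out baseline replicate 2 (−0.93), 3 (−1.02) or 4 (−0.93) or 14dpr replicate 1 (−0.93) or 2 (−0.90).

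The promoters of both bone lists were searched for TGTGGT, the core letters bound by RUNX factors, on both strands over 250 bases before to 50 after each RefSeq start (GRCm38.p6). The table held 13 promoters for 9 of the 15 osteoblast genes and 14 promoters for 10 of the 11 osteocyte genes. The letters were present in 4 (30.8%) and 4 (28.6%) of them, against 16.8% of 32851 promoters of all genes. A match is only a match of letters. The osteocyte genes with a match were Ackr3, Dkk1, Dmp1 and Mepe. The promoters of Dmp1 and Mepe are shown because both genes rose between 5dpr and 14dpr, with the matches in capitals. A link between the matches and the rise was not tested.
Dmp1, chr5:104202367-104202666 (plus strand): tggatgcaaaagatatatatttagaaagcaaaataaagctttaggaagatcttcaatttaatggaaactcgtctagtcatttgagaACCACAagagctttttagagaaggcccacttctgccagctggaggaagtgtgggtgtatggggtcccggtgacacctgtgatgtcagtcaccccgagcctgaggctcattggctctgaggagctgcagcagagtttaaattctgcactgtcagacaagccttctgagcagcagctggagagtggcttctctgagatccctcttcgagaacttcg
Mepe, chr5:104325079-104325378 (plus strand): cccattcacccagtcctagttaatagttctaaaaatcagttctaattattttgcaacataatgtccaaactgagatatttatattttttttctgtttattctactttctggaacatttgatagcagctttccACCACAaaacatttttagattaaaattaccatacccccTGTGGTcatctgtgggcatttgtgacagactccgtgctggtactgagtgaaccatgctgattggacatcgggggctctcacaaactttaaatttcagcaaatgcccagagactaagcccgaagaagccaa

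What the baseline comparison does not show is how much these genes moved in the last interval. From 5dpr to 14dpr 5 of 15 osteoblast and 5 of 11 osteocyte genes rose and 0 fell, while 1.95% of all genes rose and 2.23% fell. Calls of single genes and lists over this interval rest on 3 libraries at 5dpr and were not run under the alternatives. Dmp1 was at 59.02 ± 20.97 CPM at baseline, 3.38 ± 2.23 CPM at 2dpr (2.32 ± 0.873 without replicate 3) and 4.75 ± 1.92 CPM at 5dpr, and at 40.4 ± 9.63 CPM at 14dpr (14dpr against 5dpr, log2 fold change 3.06 ± 0.59, adjusted p = 0.00143). Phex went from 1.94 ± 0.971 CPM at 5dpr to 24.7 ± 13.4 CPM (log2 fold change 3.62 ± 0.60, adjusted p = 2.69e-04). Mepe also rose from 5dpr (log2 fold change 3.35 ± 0.89, adjusted p = 0.0242). Ibsp, the bone sialoprotein gene, rose over the same interval (log2 fold change 2.12 ± 0.47, adjusted p = 0.00607), as did Alpl (1.97, adjusted p = 0.00243).

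Of 15 osteoclast genes 3 rose, 1 fell and 11 were not called (median 0.30). This count was unstable, with 1 that rose under the muscle covariate, 5 without 2dpr replicate 3 and 8 when the 8 libraries were fitted alone, and 1 or 2 that fell. The groups did not overlap for 9 of the 15, against 37.6% of all genes. Acp5 was at 474, 627, 615 and 431 CPM in the baseline libraries and at 442, 578, 584 and 538 CPM in the 14dpr libraries, so that the groups coincided (log2 fold change −0.00 ± 0.32, adjusted p = 0.994). It encodes tartrate-resistant acid phosphatase. It had been at 68.9 ± 36.7 CPM at 2dpr (50.6 ± 1.30 without replicate 3) and 158 ± 46.3 CPM at 5dpr, from which it rose (log2 fold change 1.76 ± 0.36, adjusted p = 0.00252). Ctsk, the collagen-degrading cathepsin K, rose against baseline (log2 fold change 1.08 ± 0.34, adjusted p = 0.0119), a call lost with the muscle covariate (0.47). The RANK receptor gene Tnfrsf11a rose (log2 fold change 1.29 ± 0.20, adjusted p = 3.03e-06), and the integrin gene Itgb3, shared with platelets, fell (log2 fold change −1.18 ± 0.24, adjusted p = 2.29e-04). Of the 5 genes that control osteoclasts Csf1 (log2 fold change 1.13 ± 0.21, adjusted p = 6.13e-05) and its receptor Csf1r (log2 fold change 1.15 ± 0.13, adjusted p = 1.83e-08) rose. The RANKL gene Tnfsf11 (0.87, adjusted p = 0.0972) and its decoy receptor Tnfrsf11b (0.61, adjusted p = 0.0798) were not called. Both were called when the 8 libraries were fitted alone (adjusted p = 0.00684 and 0.0194 in edgeR's test), and Tnfrsf11b also without 2dpr replicate 4.

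**Figure D4:**
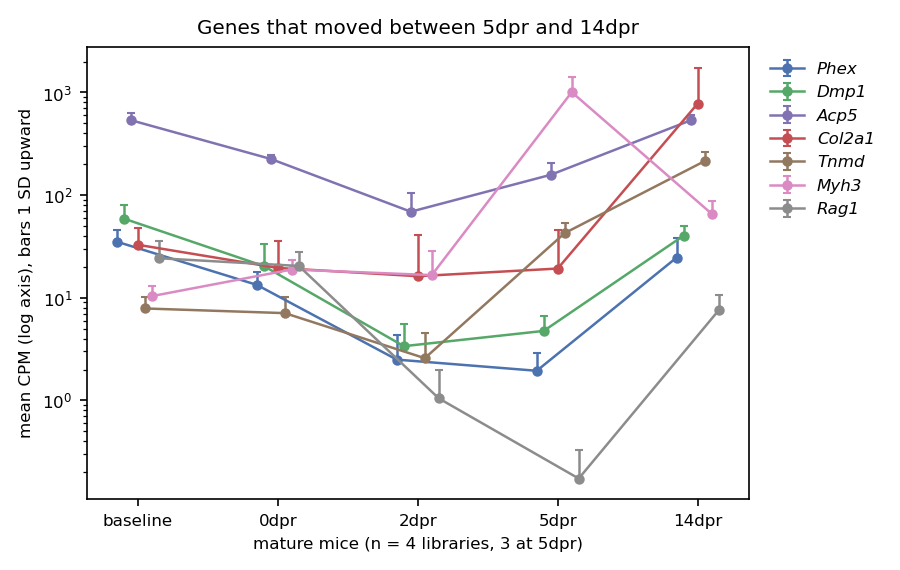
Mean CPM (log axis, bars 1 SD upward) of 7 genes that differed between 5dpr and 14dpr in mature mice (n = 4 libraries, 3 at 5dpr; the 2dpr mean includes replicate 3, which stood apart). Phex, Dmp1 and Acp5 were near their baseline level at 14dpr after low values at 2dpr and 5dpr, Col2a1 and Tnmd were above it, Myh3 peaked at 5dpr, and Rag1 rose from its low at 5dpr.

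Progenitor and signalling genes showed moderate increases. Of 12 periosteal and stromal progenitor genes 8 rose and 2 fell (median 1.05). Thy1 (log2 fold change 2.15 ± 0.21, adjusted p = 3.40e-10) and Ly6a (1.85), surface markers of stromal cells, and Prrx1 (1.001), a limb and periosteal transcription factor, rose, and Pdgfra, a growth factor receptor of mesenchymal cells, lay above the baseline range in each 14dpr library (log2 fold change 1.15 ± 0.13, adjusted p = 1.70e-08). The marrow stromal genes Lepr (log2 fold change −1.37 ± 0.29, adjusted p = 3.28e-04) and Cxcl12 (log2 fold change −0.72 ± 0.21, adjusted p = 0.00634) fell, the first of which encodes the leptin receptor and the other the chemokine that holds blood progenitors in the marrow.

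Of 14 Hedgehog genes 7 rose and 0 fell (median 0.88). Beside the ligand Ihh these were coreceptors, Cdon (log2 fold change 1.59 ± 0.23, adjusted p = 1.50e-06), Gas1 (1.35) and Boc (0.92), the receptor Smo (0.88), the transcription factor Gli3 (1.41) and the inhibitor Sufu (0.43). Sufu was not called without baseline replicate 1, 3 or 4 or without 14dpr replicate 1 or 3 (0.36 to 0.42, adjusted p = 0.085 to 0.146 in edgeR's test), nor with 5 other alternatives (0.34 to 0.48, adjusted p = 0.0545 to 0.303). The target genes Gli1 (0.29, adjusted p = 0.681) and Ptch1 (−0.03, adjusted p = 0.929) were not called against baseline, but both rose from 5dpr to 14dpr (1.90, adjusted p = 0.0284, and 0.95, adjusted p = 0.0106).

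Of 28 TGF-β and BMP pathway genes 12 rose and 4 fell (median 0.55). Among the ligands Tgfb2 (log2 fold change 1.39 ± 0.28, adjusted p = 1.35e-04) and Tgfb3 (1.21) rose, Tgfb1 was at −0.06 (adjusted p = 0.905), and the bone morphogenetic proteins Bmp2 (log2 fold change −0.98 ± 0.27, adjusted p = 0.00427), Bmp4 (log2 fold change −1.08 ± 0.30, adjusted p = 0.00430) and Bmp7 (log2 fold change −2.15 ± 0.49, adjusted p = 7.10e-04) fell. The type II receptor Tgfbr2 (1.61) and the procollagen protease Bmp1 (2.06) rose.

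Of 26 Wnt pathway genes 13 rose and 3 fell (median 0.79), and 5 of the 26 rose from 5dpr to 14dpr. Among secreted antagonists Sfrp2 (log2 fold change 2.78 ± 0.38, adjusted p = 3.95e-07), Sfrp1 (1.84) and Dkk3 (2.08) rose, while Sost (1.81-fold lower) and Dkk1 (1.39-fold lower) were not called. The ligand Wnt2 rose from a low level (log2 fold change 2.01 ± 0.56, adjusted p = 0.00513). The nuclear factor Lef1 fell (log2 fold change −2.02 ± 0.61, adjusted p = 0.00858), and so did the ligand Wnt4 (−1.26), whose call was lost without baseline replicate 2 (−1.25), 3 (−1.27) or 4 (−1.10) or 14dpr replicate 1 (−1.03) or 4 (−1.09). Axin2 fell 1.71-fold, a call lost under 6 of 18 alternatives. Of 17 genes of the insulin-like growth factor axis and imprinted growth genes 13 rose and 2 fell (median 1.75). Mest was at 8.91, 2.85, 2.86 and 5.27 CPM in the baseline libraries and at 215, 204, 202 and 195 CPM in the 14dpr libraries (log2 fold change 5.37 ± 0.35, adjusted p = 5.97e-14), without overlap. Igf1 (log2 fold change 2.78 ± 0.21, adjusted p = 1.37e-12), Igf2 (log2 fold change 2.67 ± 0.30, adjusted p = 9.12e-09), Dlk1 (2.88), Meg3 (2.77) and Plagl1 (3.01) rose, and the receptor Igf1r fell (log2 fold change −0.78 ± 0.20, adjusted p = 0.00192). Igf2 fell again between 5dpr and 14dpr (−1.58, adjusted p = 0.00103).

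Muscle fibre genes were below baseline. Of 33 contractile genes 27 fell and 0 rose, with a median of −1.16, and their share of the counts was 2.48 to 4.55% at 14dpr and 6.30 to 10.8% at baseline. Myh4 was at 4851, 5212, 8844 and 10034 CPM in the baseline libraries and at 1677, 3553, 2809 and 1665 CPM in the 14dpr libraries, without overlap (log2 fold change −1.58 ± 0.34, adjusted p = 3.13e-04). It encodes the fast type IIb myosin heavy chain. Acta1, skeletal actin (log2 fold change −1.08 ± 0.30, adjusted p = 0.00479), Ttn, titin (log2 fold change −1.33 ± 0.32, adjusted p = 0.00132), and Tcap, which anchors it (log2 fold change −2.28 ± 0.33, adjusted p = 1.39e-06), fell too. The slow-fibre genes Tnni1 (0.18, adjusted p = 0.719) and Tnnt1 (−0.53, adjusted p = 0.168) and the light chains Myl1 (−0.11, adjusted p = 0.791) and Mylpf (−0.58, adjusted p = 0.116) were not called. Other slow-fibre genes did fall, the light chains Myl2 (4.77-fold) and Myl3 (3.75-fold). From 5dpr to 14dpr 6 of the 33 fell and 0 rose. With the muscle covariate, which is computed from these genes, 3 of its members were lower and 5 higher, and the median was 0.04.

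CAGCTG, an E-box that myogenic factors bind and that is its own reverse complement, was present in 17 of 33 promoters (51.5%) of the 27 genes of the list with a promoter in the table, against 16.3% of all promoters. The promoter of Cacna1s, the muscle calcium channel gene, is shown with its match in capitals, at −123 from the start, because this gene fell with the list (log2 fold change −1.53 ± 0.27, adjusted p = 2.49e-05).
Cacna1s, chr1:136052561-136052860 (plus strand): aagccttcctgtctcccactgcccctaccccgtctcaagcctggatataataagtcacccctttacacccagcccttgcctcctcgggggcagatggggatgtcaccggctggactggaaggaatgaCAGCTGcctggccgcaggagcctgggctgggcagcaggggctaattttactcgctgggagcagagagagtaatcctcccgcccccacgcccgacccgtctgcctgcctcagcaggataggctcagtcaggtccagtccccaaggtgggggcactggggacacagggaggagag

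Genes of muscle regeneration were above baseline and on their way down. Of 15 tested 9 rose and 2 fell against baseline (median 2.01), and all 15 fell from 5dpr to 14dpr (2.23% of all genes did), when the median change was −2.88. Myh8 was at 3.77, 3.86, 2.96 and 3.48 CPM in the baseline libraries and at 149, 176, 84.4 and 115 CPM in the 14dpr libraries (log2 fold change 5.21 ± 0.59, adjusted p = 1.12e-08). It encodes the perinatal myosin. The embryonic myosin gene Myh3 was at 10.4 ± 2.61 CPM at baseline, 1007 ± 417 CPM at 5dpr and 65.8 ± 21.7 CPM at 14dpr. The fusion gene Mymk (log2 fold change 4.67 ± 0.72, adjusted p = 3.16e-06) and the fetal acetylcholine receptor gene Chrng (log2 fold change 4.14 ± 0.81, adjusted p = 1.11e-04) were still raised. The satellite cell factors Pax7 (1.05, adjusted p = 0.207), Myod1 (0.27, adjusted p = 0.518) and Myf5 (−0.17, adjusted p = 0.857) were not called, and Megf10 (log2 fold change −1.05 ± 0.27, adjusted p = 0.00215), a satellite cell receptor, fell.

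Of 12 genes of muscle stress and denervation 5 rose, among them Myh3 and Chrng, and 6 fell, among them the stretch-responsive Ankrd2 (log2 fold change −2.82 ± 0.36, adjusted p = 1.05e-07) and Xirp1 (−1.91). Of 22 oxidative phosphorylation genes 21 fell (median −0.72), the muscle isoforms Cox6a2 (log2 fold change −2.14 ± 0.36, adjusted p = 1.46e-05), Cox8b (−1.496) and Cox7a1 (−1.47) most. With the muscle covariate 1 of the 22 was lower. Of 21 glycolysis genes 11 fell and 4 rose. Those that fell included the muscle forms Pfkm (log2 fold change −1.56 ± 0.26, adjusted p = 8.36e-06) and Eno3 (−1.31) and the insulin-regulated glucose transporter Slc2a4 (log2 fold change −2.12 ± 0.24, adjusted p = 1.54e-08), and those that rose were Slc2a1 (0.79), Pfkp (0.78), Pgam1 (0.76) and Eno1 (0.66), the forms of other tissues. The call for Slc2a1 was lost without 14dpr replicate 1 (0.43). With the muscle covariate 5 were lower and 2 higher.

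Fat genes were low. Of 14 adipocyte genes 11 fell and 0 rose (median −1.71), and 7 fell with the muscle covariate. Adipoq was at 229, 174, 166 and 309 CPM in the baseline libraries and at 39.9, 104, 63.3 and 74.6 CPM in the 14dpr libraries, without overlap (log2 fold change −1.64 ± 0.30, adjusted p = 4.60e-05). It encodes adiponectin. The lipid droplet genes Plin4 (−2.40), Cidec (−2.34) and Plin1 (−1.97), and Lep, leptin (−2.59), fell further, while lipoprotein lipase (Lpl) was not called (−0.26, adjusted p = 0.411). Of 11 fatty acid synthesis genes 5 fell (3 to 7 on leaving out single libraries), led by the desaturase Scd1 (log2 fold change −2.16 ± 0.51, adjusted p = 0.00104), and 1 rose, Elovl5 (0.70). With the muscle covariate 2 fell and 0 rose, and the calls for Scd1 (−1.49) and Elovl5 (0.29) were lost.

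Red cell genes had the lowest median of the lists. All 18 erythroid genes fell, with a median of −3.74, and did so in every alternative model. Their share of the counts was 0.0624 to 0.392% at 14dpr and 2.14 to 2.63% at baseline. Hbb-bs was at 9888, 7970.4, 12940.3 and 11723 CPM in the baseline libraries and at 249.6, 1918, 980.2 and 1072 CPM in the 14dpr libraries, without overlap (log2 fold change −3.33 ± 0.46, adjusted p = 4.91e-07). It encodes adult beta globin, and the globin copies Hbb-bt (−3.32), Hba-a1 (−3.49) and Hba-a2 (−3.57), which can share reads, fell alike. The red cell membrane genes Epb42 (log2 fold change −4.04 ± 0.72, adjusted p = 2.91e-05), Ermap (−3.995) and Slc4a1 (log2 fold change −3.99 ± 0.72, adjusted p = 3.42e-05) fell most, and the erythroid transcription factors Gata1 (−3.69) and Klf1 (−3.74) fell with them. Hbb-bs had been at 10180.0 ± 3485 CPM at 0dpr, 1552 ± 839 CPM at 2dpr (1231 ± 662 without replicate 3) and 1711 ± 425 CPM at 5dpr, and the median change of the list from 5dpr to 14dpr was −0.01.

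AGATAA, the letters bound by GATA factors, was present on either strand in 5 of 14 promoters (35.7%) of the 13 genes of the list with a promoter in the table, against 11.2% of all promoters. The promoters of Hbb-bs and Epb42 are shown because these are the most abundant and the most lowered member of the list, with the matches in capitals at −210 and −226 from the start.
Hbb-bs, chr7:103827879-103828178 (minus strand): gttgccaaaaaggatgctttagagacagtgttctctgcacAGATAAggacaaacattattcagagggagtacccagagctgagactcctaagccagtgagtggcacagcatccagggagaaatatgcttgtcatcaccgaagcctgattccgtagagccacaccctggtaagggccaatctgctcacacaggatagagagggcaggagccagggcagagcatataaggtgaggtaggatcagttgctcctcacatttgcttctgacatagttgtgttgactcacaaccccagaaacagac
Epb42, chr2:121036828-121037127 (minus strand): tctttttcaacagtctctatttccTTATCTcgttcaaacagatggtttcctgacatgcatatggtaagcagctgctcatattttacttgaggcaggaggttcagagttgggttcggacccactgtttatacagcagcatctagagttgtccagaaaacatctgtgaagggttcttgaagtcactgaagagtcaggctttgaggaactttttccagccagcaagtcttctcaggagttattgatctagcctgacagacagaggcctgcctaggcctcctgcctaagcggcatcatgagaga

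Granulocyte genes followed. Of 15 tested 14 fell and 0 rose (median −2.55). Mpo was at 622, 1195, 1131 and 441 CPM in the baseline libraries and at 92.3, 92.2, 97.5 and 108 CPM in the 14dpr libraries (log2 fold change −3.12 ± 0.61, adjusted p = 9.94e-05), so that the 14dpr libraries were nearly alike and far below baseline. Mpo, myeloperoxidase, and Elane (−3.02), Ctsg (−3.02) and Prtn3 (−3.01) are primary granule genes of early precursors. The genes of mature neutrophils S100a8 (−2.30) and S100a9 (−2.34) fell somewhat less, and the receptor gene Csf3r was not called (−0.29, adjusted p = 0.606). The median change of the list from 5dpr to 14dpr was 0.40.

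Of 19 B cell and plasma cell genes 10 fell and 2 rose (median −1.73), and the 2, Ebf1 (0.61) and Prdm1 (0.84), are transcription factors that other cell types also use. Cd79a, part of the B cell receptor, fell (log2 fold change −2.28 ± 0.65, adjusted p = 0.006002), as did the mature B cell gene Ms4a1 (log2 fold change −2.59 ± 0.56, adjusted p = 3.47e-04) and the joining chain gene Jchain (log2 fold change −3.17 ± 0.63, adjusted p = 1.43e-04). The recombinase gene Rag1 was at 24.3 ± 11.7 CPM at baseline, 0.173 ± 0.157 CPM at 5dpr and 7.55 ± 3.07 CPM at 14dpr. It was not called against baseline (adjusted p = 0.0972), although it was when the 8 libraries were fitted alone (−1.68, adjusted p = 0.00455 in edgeR's test). It rose from 5dpr (log2 fold change 5.19 ± 1.27, adjusted p = 0.0131). Cd79b (2.04, adjusted p = 0.0317) rose from 5dpr as well. Of 11 immunoglobulin constant region genes, whose reads can be shared among copies, 7 fell, among them Ighm (log2 fold change −2.98 ± 0.44, adjusted p = 1.53e-06) and Igkc (−2.97). Of 19 T and NK cell genes 3 fell, Nkg7 (log2 fold change −2.38 ± 0.47, adjusted p = 1.11e-04), Gzma (−2.11) and Ncr1 (−2.004), and 15 were not called, among them Cd3e (−0.75, adjusted p = 0.464). The 1 that rose was Il7r (2.10-fold), a call lost under 8 of 18 alternatives. The call for Gzma was lost without 14dpr replicate 3 (−1.91).

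Proliferation genes fell together. All 20 cell cycle genes were lower at 14dpr, in each alternative model too, with a median of −1.84. Mki67 was at 1176, 1211, 1185 and 882 CPM in the baseline libraries and at 137, 194, 164 and 192 CPM in the 14dpr libraries (log2 fold change −2.70 ± 0.40, adjusted p = 1.93e-06), without overlap, and Top2a (−1.94) and Ccna2 (−1.97), of DNA replication and mitosis, fell as well. The erythroid and granulocyte precursor genes above fell in the same libraries, and their part in this result was not tested. Of 10 cell cycle arrest genes 6 rose and 1 fell, Lmnb1 (−0.92), which encodes lamin B1. Cdkn1a, the p21 inhibitor, rose 3.71-fold (log2 fold change 1.89 ± 0.28, adjusted p = 1.74e-06) and Cdkn2b 5.49-fold (log2 fold change 2.46 ± 0.43, adjusted p = 2.21e-05). With the muscle covariate 3 were higher.

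Macrophage genes were above baseline. Of 23 tested 18 rose and 3 fell (median 1.46). Trem2 was at 10.7, 7.46, 7.39 and 6.40 CPM in the baseline libraries and at 83.2, 67.4, 73.7 and 108 CPM in the 14dpr libraries, without overlap (log2 fold change 3.38 ± 0.24, adjusted p = 4.90e-13). It encodes a lipid-sensing receptor of phagocytes, and Gpnmb (log2 fold change 3.93 ± 0.48, adjusted p = 4.12e-08), Msr1 (3.54) and Lgals3 (2.41), of the same scavenging state, rose with it. Arg1, arginase of wound macrophages, rose 57.8-fold (log2 fold change 5.85 ± 0.91, adjusted p = 3.62e-06), and had fallen from 212 ± 121 CPM at 5dpr to 28.03 ± 9.88 CPM (adjusted p = 0.00552). The general markers Adgre1 (2.08) and Cd68 (1.77) rose. The inflammatory monocyte gene Ly6c2 (log2 fold change −2.30 ± 0.47, adjusted p = 2.15e-04) fell, as did Timd4 (log2 fold change −1.90 ± 0.60, adjusted p = 0.0132), of resident macrophages, whose call was lost without baseline replicate 1 (−0.85) or 14dpr replicate 1 (−1.67).

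Chemokine and interleukin genes were high, 17 of 22 having risen and 1, Cxcl12, having fallen (median 2.78, or 2.74 with low genes at their bound). Cxcl2 was at 0.734, 0.335, 1.28 and 0.337 CPM in the baseline libraries and at 80.1, 101, 57.1 and 91.9 CPM in the 14dpr libraries (log2 fold change 6.92 ± 0.71, adjusted p = 1.45e-09). It encodes a neutrophil attractant. Cxcl3 had 2 counts in all baseline libraries and a ratio of 415 (95% interval 114 to 3432). The monocyte attractants Ccl7 (log2 fold change 5.90 ± 0.47, adjusted p = 5.73e-12), Ccl2 (log2 fold change 5.49 ± 0.41, adjusted p = 9.35e-13) and Ccl8 (5.25) rose, and Il1b rose both from baseline (log2 fold change 2.65 ± 0.42, adjusted p = 5.55e-06) and from 5dpr (2.74, adjusted p = 3.81e-04). While the attractants of neutrophils were high, neutrophil genes were low.

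Of 16 complement genes 10 rose and 1 fell (median 1.33). After C3ar1 the largest increases among abundant members were those of C1s1 (log2 fold change 2.06 ± 0.18, adjusted p = 6.90e-11), a protease of the classical pathway, and C1qb (1.93), and Cfd, adipsin, made by adipocytes, fell (log2 fold change −1.33 ± 0.37, adjusted p = 0.00468). Of 15 interferon-induced genes 8 rose and 1 fell, Rsad2 (log2 fold change −2.08 ± 0.37, adjusted p = 2.78e-05). Without 2dpr replicate 3 the number that fell was 2, and with the muscle covariate 2 rose. Of 9 MHC class II genes 5 rose, among them H2-Ab1 (log2 fold change 1.09 ± 0.27, adjusted p = 0.00178), and the B cell genes H2-Ob (−1.496) and H2-Oa (−1.73) fell, the latter not without baseline replicate 1 (−1.40). Of 11 heme and iron genes 4 rose, Slc11a1 (log2 fold change 2.07 ± 0.18, adjusted p = 2.35e-11), Hmox1, heme oxygenase (1.09), Ftl1 (1.27) and Fth1 (0.86), and 3 fell, among them ferroportin (Slc40a1, log2 fold change −1.17 ± 0.30, adjusted p = 0.00275).

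Vessel genes rose modestly. Of 17 endothelial genes 12 rose and 3 fell (median 0.65). Plvap was at 28.7, 30.9, 25.04 and 26.5 CPM in the baseline libraries and at 96.9, 65.3, 80.8 and 56.7 CPM in the 14dpr libraries (log2 fold change 1.43 ± 0.33, adjusted p = 8.55e-04). Pecam1 (1.09) and Cdh5 (1.19), general endothelial markers, and Angpt2, of sprouting vessels (log2 fold change 1.81 ± 0.33, adjusted p = 3.73e-05), rose. Vwf, shared with platelets, fell (log2 fold change −1.30 ± 0.19, adjusted p = 1.46e-06), as did Angpt1 (−0.68). Of 12 Schwann cell and myelin genes 5 fell, among them Mbp (log2 fold change −1.10 ± 0.22, adjusted p = 1.72e-04) and Mal (−1.77), and 3 rose, among them Egr2 (log2 fold change 2.01 ± 0.33, adjusted p = 7.85e-06), which is also an immediate early gene. Of 16 immediate early genes 7 rose and 0 fell (median 1.02), among them Fosb (1.92), Atf3 (log2 fold change 1.84 ± 0.36, adjusted p = 9.75e-05) and Junb (1.48). Junb was not called without 14dpr replicate 1 (1.11, adjusted p = 0.116 in edgeR's test), baseline replicate 1 (1.42, 0.0528) or baseline replicate 2 (1.39, 0.0587).

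The same comparison in immature mice asks which of these changes go with age. In immature mice 6667 genes (31.4%) were called between 14dpr and baseline, 3473 higher (16.4%) and 3194 lower (15.1%). The change differed between the ages for 10 genes (0.0472%), each with a more positive change in mature mice, and 1693 (7.98%) had an unadjusted p below 0.05 for the difference. This number was unstable. It lay between 1 and 35 when 1 mature library was left out, being 1 without baseline replicate 2 or 14dpr replicate 2 and 35 without baseline replicate 4, and it was 22 (2 of them with a lower change in mature mice) without 2dpr replicate 3, 54 with DESeq2 and 180 when only the 16 libraries compared were fitted.

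Col3a1 had the smallest p for the difference and kept its call under each of 18 alternatives, none of which left out an immature library. It rose by 4.66 on the log2 scale in mature and by 2.5 in immature mice (difference log2 fold change 2.16 ± 0.30, adjusted p = 6.44e-04). Its mean level was 882 ± 345 CPM in mature and 3286 ± 547 CPM in immature baseline libraries, and 22254 ± 3992 CPM and 18590.0 ± 4178 CPM at 14dpr, so that the ages differed more at baseline than at 14dpr. Mfap4 (4.01 and 2.08, adjusted p = 0.0155 for the difference) and the crosslinking enzyme gene Loxl2 (3.65 and 2.003, adjusted p = 0.0357) are matrix genes too. Ldlrad4 (1.495 and 0.55, adjusted p = 0.0349) encodes an inhibitor of TGF-β signals. Other called genes were Ptgfrn (adjusted p = 0.0349), the secretoglobin gene Scgb2b27 (adjusted p = 0.0234), the mucin-like gene Mucl2 (adjusted p = 0.0349), 1110002E22Rik (adjusted p = 0.0349) and Cav3, caveolin of muscle fibres, which was at 0.42 in mature mice (adjusted p = 0.175) and fell in immature mice (−1.46, adjusted p = 7.39e-06; adjusted p = 0.0155 for the difference). Each of the other 8 genes named lost its call for the difference under 2 to 9 of the 18 alternatives.

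**Figure D5:**
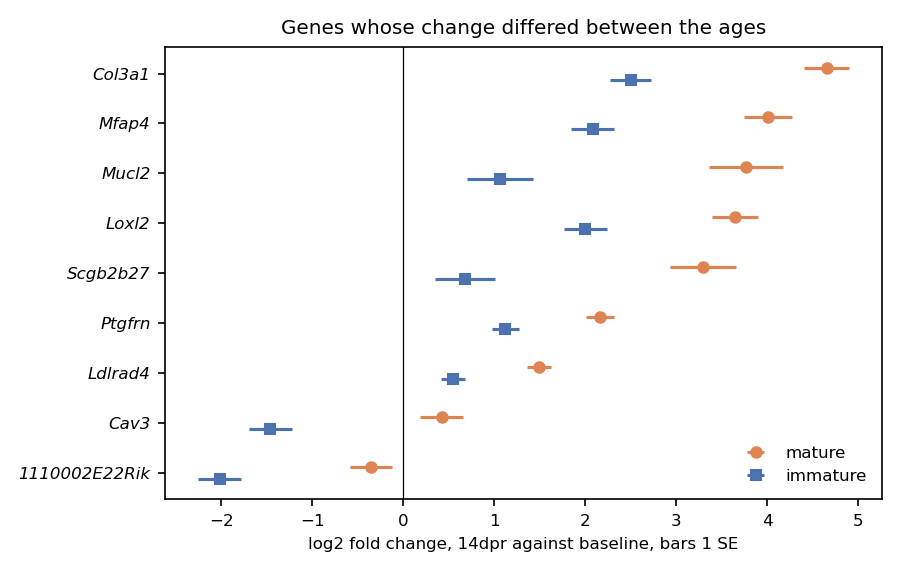
Log2 fold change between 14dpr and baseline (bars 1 SE) in mature (orange circles) and immature mice (blue squares) for 9 of the 10 genes whose change differed between the ages. In each the mature value lies to the right, as for Col3a1 at 4.66 against 2.5.

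No gene of the bone cell, marrow or chemokine lists was among the 10, so a difference between the ages was not shown for them. Their values stand side by side as follows. The osteoblast list had 5 genes called higher and 0 lower in immature mice (median 0.52), against 2 and 3 in mature mice (median −0.61). The osteocyte list had 6 and 0 in immature mice (median 0.67), and the osteoclast list 11 and 0 (median 1.06). Dmp1 rose in immature mice (log2 fold change 1.46 ± 0.47, adjusted p = 0.0167) and was not called in mature mice (−0.55), with adjusted p = 0.373 for the difference, its mean level in immature mice being 63.1 ± 17.04 CPM at baseline and 173 ± 101 CPM at 14dpr. Acp5 was at 1.27 (adjusted p = 0.00211) and −0.00, with adjusted p = 0.418 for the difference. All 33 contractile genes fell in immature mice, with a median of −2.12, and all 18 erythroid genes, with a median of −2.24. For tendon genes the counts were 3 higher in immature (median 0.74) and 8 higher in mature mice, and for Tnmd the difference had adjusted p = 0.185. Mature and immature 14dpr libraries lay 0.672 apart (median root mean square of log2 CPM), against 0.667 between mature and 0.602 between immature 14dpr libraries. The baseline libraries of the ages lay 0.761 apart, against 0.674 between mature and 0.704 between immature baseline libraries. That median was above the highest pair within mature baseline (0.755) and within immature baseline (0.749).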

How the data were processed

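Bulk RNA-seq libraries were analysed from 39 of 40 labelled mouse samples; mature 5dpr replicate 2 was not analysed here. The authors aligned stranded reads with STAR 2.5.2a to GRCm38 and deposited raw gene counts, in full and filtered, by a rule not given in the sources used here. The deposited signal table of normalised CPM was used only for gene symbols and as a check of the counts' scaling. The filtered counts were normalised by TMM and fitted with edgeR 4.0.16 (quasi-likelihood F test, R 4.3.3, limma 3.58.1), with 1 coefficient for each of 10 groups of age and stage and all 39 libraries in the model. P-values were adjusted by Benjamini-Hochberg over 21204 genes at a threshold of 0.05, and the code was tested on simulated data. In these data 50% of 2-fold and 81% of 4-fold changes were called, so a gene that was not called is not shown to be unchanged. CPM are TMM-scaled. Standard errors are those of the fitted log2 fold changes, and distances used log2 CPM with a prior count of 2. A gene at 0 in all libraries of a group was given a lower bound from 3 counts per library, and low counts a ratio with a 95% exact interval.

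The labels do not say which libraries shared a sequencing run, so a run effect was not tested. Same-numbered replicates of different groups were not paired in the labels. Alternatives were DESeq2 1.42.0, RLE size factors, other filters, the compared groups alone, a muscle score as covariate, a replicate block, a scaling without muscle, erythroid and immunoglobulin genes, stricter thresholds, another prior count and leaving out each library. The gene lists and the part of the series described were chosen with earlier results of these data known. Named genes were, by rule, the 12 largest changes in each direction with a mean of at least 1 CPM and no overlap, up to 5 called members and the first 3 members of each list, uncalled members, the 5 smallest p-values in each direction and the 10 smallest for the difference between ages. Others, such as Bmp2, Bmp4, Timp3, Comp, Acan, Cxcl12, Ly6c2, Timd4, Il1b, Slc2a1, Pfkp, Pgam1, Eno1, Elovl5, Ebf1, Prdm1, Megf10, Angpt1, Cacna1s and 1110002E22Rik, were named after their values were seen. Results of a few genes that the rule would name are not reported here. Positions are from GENCODE vM21 (GRCm38), and promoters and microRNAs from RefSeq (GRCm38.p6).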

Additional observations from a re-analysis of the deposited data

Results flagged for a closer look

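For 10 genes, of which 9 are given here, the change from baseline to 14dpr differed between mature and immature mice by the test of the difference itself in edgeR's model. On the log2 scale the mature change exceeded the immature change by 2.16 for Col3a1, 1.92 for Mfap4, 1.64 for Loxl2, 0.95 for Ldlrad4, 1.04 for Ptgfrn, 2.62 for Scgb2b27, 2.70 for Mucl2, 1.89 for Cav3 and 1.67 for 1110002E22Rik.

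Of 669 groups of 4 libraries looked at for the named genes, 31 (4.63%) held a library far from the other 3 by Dixon's test, and chance alone flags about 1 in 20. In 8 cases baseline replicate 4 stood apart. It was high for Col18a1 (39.5 CPM), Cilp (180.0 CPM), Cdon (54.5 CPM) and Meg3 (29.4 CPM), which all rose at 14dpr, high for Lrrn4 (28.8 CPM) and Plin1 (174 CPM), which both fell, and low for Mmp9 (321 CPM) and Mki67 (882 CPM). In 3 cases baseline replicate 1 was high, for Snorc (0.105 CPM), Timd4 (15.2 CPM) and C1qb (199 CPM). Baseline replicate 2 was high for Mymk (0.754 CPM) and Ucp1 (39.7 CPM) and low for Egr2 (2.43 CPM), and baseline replicate 3 was high for Il1b (61.4 CPM), Cdkn2b (1.18 CPM), Angpt1 (47.5 CPM) and Gata1 (57.3 CPM).

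Among 14dpr libraries, replicate 1 was high for Dlk1 (51.2 CPM), Meg3 (199 CPM), Slc2a1 (78.7 CPM) and Slc11a1 (156 CPM) and low for Igkc (30.6 CPM). Replicate 2 was low for Pecam1 (212 CPM) and high for Btnl6 (0.223 CPM). Replicate 3 was high for Dlx5 (3.57 CPM) and Kera (34.2 CPM). Replicate 4 was high for Pdgfra (346 CPM), Elovl5 (88.1 CPM) and Mpig6b (1.04 CPM) and low for Cdon (81.4 CPM).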

How the results depend on the processing

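The comparison of mature 14dpr with baseline called 6377 to 8328 genes under the other tools, filters, scalings and the compared groups alone. It called 6066 to 6630 on leaving out 1 of the 8 libraries compared, and no gene was called in the opposite direction in any of these. With a 2-fold threshold 3995 genes were called, 1874 higher and 2121 lower. With the muscle covariate, which is computed from 33 of the genes tested, 4931 were called, of which 4585 were shared with the model without it, and 2208 were lower. Under it Acta1 (0.18), Casq1 (0.67), Mylpf (0.64), Myl1 (0.99) and Tnnt1 (0.61) reversed. Of 338 named genes 252 stayed called in the same direction, or stayed uncalled, under each of 18 alternatives. Of the other 86, 38 changed only under this covariate. For genes that stayed uncalled a change of sign was not counted, as for Cd3e (−1.03 to 0.66). With the covariate 1545 genes were called between immature 14dpr and baseline, 49 between 0dpr and baseline and 4501 between 2dpr and baseline. Same-numbered replicates did not deviate together (correlations −0.14 to −0.02), and a replicate block, with which 6997 genes were called, gave counts within 1.5 times of each comparison's own. For the difference between ages, 6 genes were called with RLE size factors or the muscle covariate, 54 with DESeq2 (12 of them with a lower change in mature mice), 180 with only the compared groups (91 lower), 463 at an unadjusted p below 0.01 (144 lower) and 22 (2 lower) and 16 without mature 2dpr replicates 3 and 4, alternatives chosen after seeing the data. Replicate 3 stood apart from its group and replicate 4 was the deepest of it. Leaving out 1 mature baseline or 14dpr library gave 1 to 35 (0 to 2 lower), and no immature library was left out. From 5dpr to 14dpr 2589 genes were called with only the groups compared, 1390 with DESeq2, 547 to 688 on leaving out a 14dpr library, the fewest without replicate 1, and 1564 and 1008 without mature 2dpr replicates 3 and 4. No 5dpr library was left out. At 2dpr only the groups compared gave 4981. With a prior count of 0.5 the distance between 14dpr and baseline was 1.412. Gene lists kept the sign of their median except mesothelial, skin and mammary genes, which crossed 0 on leaving out 1 library, and heme (−0.35), muscle stress (0.21), contractile (0.04) and skin genes (0.35) with the muscle covariate. At this depth the ratios of genes with a few counts per library, such as Ihh, are known only to within wide intervals.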
